A study of Mus musculus with 12 samples.

Results

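The transcripts of CD11c+ lung cells from wild-type mice given phosphate-buffered saline (PBS) were described from 3 arrays, those titled as wild-type PBS replicates 1 to 3, of 12 arrays in all. No treated group was set against them: genes were ordered by brightness within each array, and lists of receptor, cytokine, lipid and lineage genes were read for which members were detected and how bright they were. The mice were of strain B6(Cg)-Tyrc-2J/J, wild type at Mir22 (the other genotype of the series lacks this microRNA gene), and 4 months old by label. The labelled protocol begins at 2 months of age and lasts 1 month, and the exposure of this group was PBS. Cells carrying CD11c were taken from lung by AutoMACS, a magnetic separation, and are called antigen-presenting cells (APC) in the labels. The preparation is therefore a mixture of every cell type that the separation retained. From each sample, 100 ng of total RNA was copied from an oligo-dT primer into biotin-labelled cRNA and bound to an Illumina bead array, where each probe is read as light. Whether each array held RNA of a separate mouse or of a pool is not stated in the labels, so every SD below is the spread between these 3 samples and may be technical.

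CD11c, encoded by Itgax, is an integrin subunit carried in mice by dendritic cells and by alveolar macrophages. Alveolar macrophages live on the air side of the alveolus, where they take up inhaled particles and break down spent surfactant, a film of phospholipid and proteins made by alveolar type 2 cells. Their development depends on the growth factor GM-CSF and the nuclear receptor PPARγ, and they are known for a high load of lysosomal and lipid-handling proteins. Dendritic cells take up antigen and show it to T cells on MHC class II molecules, which lung macrophages also carry at varying levels.

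The mean deposited intensity over 45281 probes was 186, 218 and 197 on arrays 1, 2 and 3, and 34.3%, 35.0% and 32.2% of probes were detected, meaning that they were brighter than the negative control beads at a detection p under 0.05. Array 2 was the brightest by its mean, so levels are given as log2 intensities after background correction and quantile normalization (log2), and deposited intensities are named as such. A gene was represented by its brightest probe and was counted as detected when at least 1 of its probes was detected on all 3 arrays. Of 507 list members with a listed probe, 198 had more than 1 probe. In 67 members the probes lay more than 2 log2 units apart, so the level of such a gene rests on its brightest probe. Among 13095 genes with a listed probe, 7700 were detected, which is 58.8%. This percentage is the background for every count of list members below. A further 2883 genes had a best probe detected on 1 or 2 arrays, and 2512 were detected on none. Of the 7700 genes, 6757 (87.8%) were also detected on all 12 arrays of the series. Over all detected genes, array 1 held the lowest of the 3 log2 levels for 37.1%, array 2 for 29.6% and array 3 for 33.4%, and the highest for 35.5%, 32.5% and 32.0%. These shares are the background for every count of genes lowest or highest on an array below. Probes were listed only if detected on at least 1 of the 12 arrays, so a list member without a listed probe has no value here, and shares are over listed members. The median detected gene lay at 6.62 log2 with quartiles of 5.52 and 8.07, and the median undetected gene lay at 4.32. Brightness depends on how well a probe binds as well as on the amount of RNA, so the order of genes is an order of light and not of transcript numbers. Summed deposited intensities of lists below are not normalized and include undetected members and the background of each probe. For scale, the list of other tissue macrophages, with 1 of 8 members detected, summed to 712, 780 and 761 on arrays 1, 2 and 3.

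Lysozyme, eosinophil-associated ribonuclease, ribosomal, iron-storage and chitinase-like transcripts led the order of brightness. The brightest named gene was Ear3, of a family of secreted ribonucleases, with deposited intensities of 20812, 21753 and 21285 on arrays 1, 2 and 3. Lyz2, the lysozyme of macrophages, read 22716, 19351 and 19674. Fth1, the ferritin heavy chain that stores iron, read 23407, 17689 and 16661. On array 1, Fth1 and Lyz2 were both brighter than on the other arrays, while Ear3 varied by the smallest amount of these genes. The chitinase-like Chil3, a marker of mouse alveolar macrophages, read 16361, 16383 and 14697, and its 3 probes were all detected. Ear3, Lyz1, Lyz2, Chil3 and Chil4 belong to families of near-identical genes, so light on a probe of 1 member can come from another, and the names are uncertain. The probes of some of these genes disagreed. The other 2 probes of Ear3 read 902 to 1663 and the other 2 probes of Lyz1 read 134 to 257. Of the other 2 probes of Lyz2 the brighter read 8356 to 9201 and the dimmest 171 to 231, while all 3 probes of Chil3 were bright, at 8509 to 16383, and Chil4 had a single probe.

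The 40 brightest named genes held 13.1%, 11.8% and 12.8% of the summed brightness of named genes on arrays 1, 2 and 3, and the first 100 held 21.5% ± 0.45 (SD, n = 3). The first 1000 genes held 55.1%, 56.1% and 55.0%. Of the first 40 genes, counted per array, 33 were shared by all 3 arrays, and 48 genes stood among the first 40 on any of them. In this set, 14 genes encode ribosomal proteins (among them Rpl41, Rplp1, Rps29, Rpl38 and Rps24) and 2 are mitochondrial, CYTB and ND4. The lists described below held 10 of them: Lyz2, Fth1, Chil3, B2m, Lpl, Psap, Gpx1, Ftl1, Cd9 and Fcer1g. The place of Ftl1 rests on 1 probe, as its other probe had a mean of 4.33 log2 and was detected on no array. Another 14 belonged to neither, including Laptm5, a lysosomal membrane protein of blood-forming lineages, the actin-binding Tmsb4x, Anxa2, Lgals3, the galectin that macrophages are known for, and Mt1, a metallothionein that binds zinc and copper. Unnamed probes were also bright: of the 100 brightest probes of all, 39 had no single gene symbol.

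**Figure D1:**
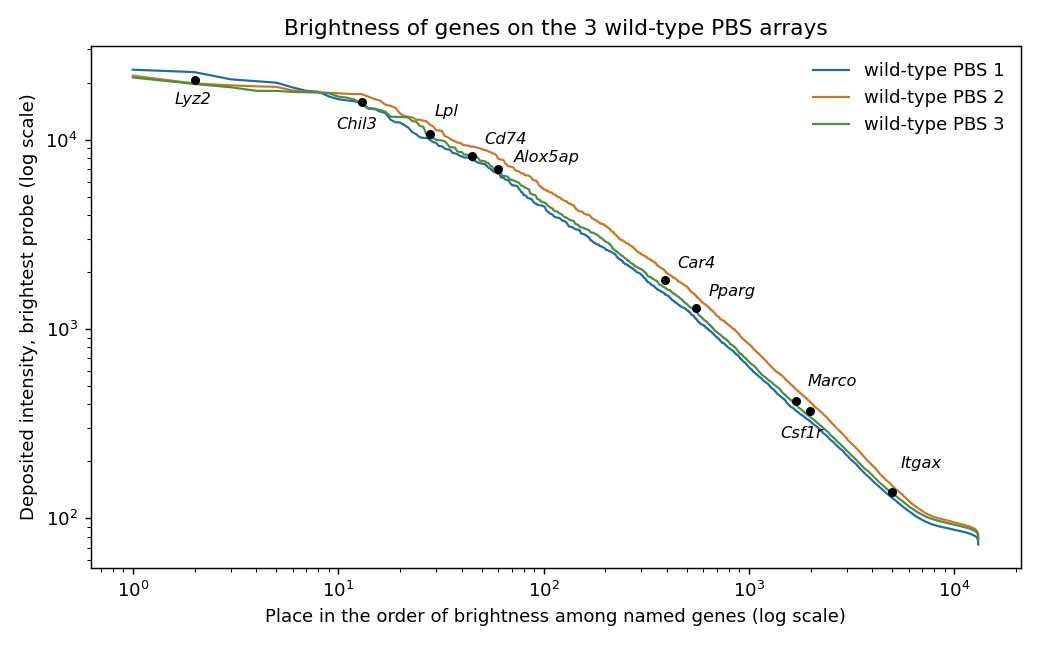
Deposited intensity of the brightest probe of each named gene (vertical, log scale) against its place in the order of brightness (horizontal, log scale), with 1 line per wild-type PBS array and points at the mean intensity and mean order of named markers. Lyz2 stood at place 2, Chil3 at 13, Lpl at 28, Cd74 at 45 and Itgax at 4991 of 13095.

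Ribosomal protein transcripts were numerous among the brightest genes, with 54 of 57 detected and 28 among the first 100. Such transcripts are known for a stretch of C and T letters at the start of the mRNA, a feature through which their translation is controlled. Promoters of a pair of genes among the first 40, Rpl38 (log2 13.73) and Rps24 (log2 13.67), are shown because they carry such a stretch. The sequences are from RefSeq on GRCm38.p6, from 60 bases before to 30 bases after the annotated start, with the run of C and T in capitals; Rpl38 is at chr11:114668520-114668609 and Rps24 at chr14:24490618-24490707, both on the plus strand.
Rpl38: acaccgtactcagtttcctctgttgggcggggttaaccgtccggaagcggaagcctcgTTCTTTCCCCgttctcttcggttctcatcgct
Rps24: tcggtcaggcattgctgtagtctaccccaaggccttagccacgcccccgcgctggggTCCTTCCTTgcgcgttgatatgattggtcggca
A run of at least 9 C or T letters, searched on the transcribed strand within 10 bases before and 25 bases after the start, was found in 17 of the 48 ribosomal protein genes with a promoter in the table (35.4%). It was found in 2599 of all 27025 genes with a promoter (9.62%) and in 644 of 6315 detected genes (10.2%). The letters and the gene set were chosen after the brightness order was seen, and a match is a description of the sequence.

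Of the markers used to check the labelled cells, Itgax itself was detected on all 3 arrays with both of its probes but was not bright. Its log2 levels were 5.76, 5.94 and 6.10, which made it brighter than 61.9% of named genes and placed it below the median of detected genes. Marco, a scavenger receptor of alveolar macrophages, lay at 8.42, 8.00 and 8.51. Cd74, the invariant chain that guides MHC class II molecules, lay at 13.03, 13.07 and 12.59 and was the 45th brightest gene. The 3 markers were thus all detected, over a range of about 7 log2 units, with differences between arrays of at most 0.51 within a gene.

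Alveolar macrophage markers included some of the brightest transcripts. Of 20 markers, 15 had a listed probe and 13 were detected, with a summed deposited intensity over the list of 38487, 45475 and 40056 and mean levels over the 13 of 10.35, 10.43 and 10.44 log2 on arrays 1, 2 and 3. Axl, a receptor tyrosine kinase for dying cells, lay at 12.88, 12.75 and 12.96 on its brighter probe, although its other probe, detected on 2 of 3 arrays, had a mean of 4.73. The mannose receptor Mrc1 lay at 11.49, 11.64 and 11.68, and Krt79 at 11.18, 11.21 and 11.16. In these genes the arrays differed by at most 0.21. Car4, a membrane carbonic anhydrase, was lower on array 1 than on the others, at 10.09, 10.87 and 10.76. Pparg, the nuclear receptor on which these cells depend, lay at 10.20, 9.92 and 10.19 with all 3 probes detected, and Cidec, a lipid droplet protein, at 10.02, 10.06 and 9.88. The interleukin Il18, the protease Ctsk and the keratin Krt19 were also detected, with means of 10.87, 11.27 and 9.26. The exceptions were Siglecf, a sialic acid-binding lectin of alveolar macrophages and eosinophils, and the proton pump subunit Atp6v0d2. The single probe of Siglecf lay at 4.80, 4.31 and 4.36 and that of Atp6v0d2 at 4.59, 4.36 and 4.47, near the median undetected gene, each detected on some but not all arrays. Ear1, Ear2, Fabp4, Bhlhe41 and Cd200r4 had no listed probe.

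All 9 listed genes of macrophages in general were detected. Tyrobp, the signalling adaptor of many myeloid receptors, was next to Lyz2 in brightness, at 11.70, 11.68 and 11.74. The macrophage surface receptor Adgre1 (F4/80) lay at 9.28, 9.89 and 9.92 and the efferocytosis receptor Mertk at 9.12, 9.13 and 9.38. Adgre1 was lower on array 1, and Mertk was close on arrays 1 and 2. Csf1r, receptor of the growth factor M-CSF, had a mean of 8.03 ± 0.27 (SD, n = 3), Siglec1 7.86 ± 0.07 and Fcgr1 6.33 ± 0.05. Of 15 listed monocyte and interstitial macrophage markers, 11 were detected, led by Fcgr4 (mean 11.62), an activating Fc receptor. The complement genes C1qa, C1qb and C1qc had means of 4.98, 6.66 and 6.10, and the fractalkine receptor Cx3cr1 a mean of 5.93. Ccr2 and Itgam (CD11b) were detected on some but not all arrays, and Folr2 and Nr4a1 on none. Markers of macrophages of other tissues were near background: 1 of 8 listed was detected, the microglial P2ry12 at a mean of 4.74, and none at a detection p under 0.01.

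**Figure D2:**
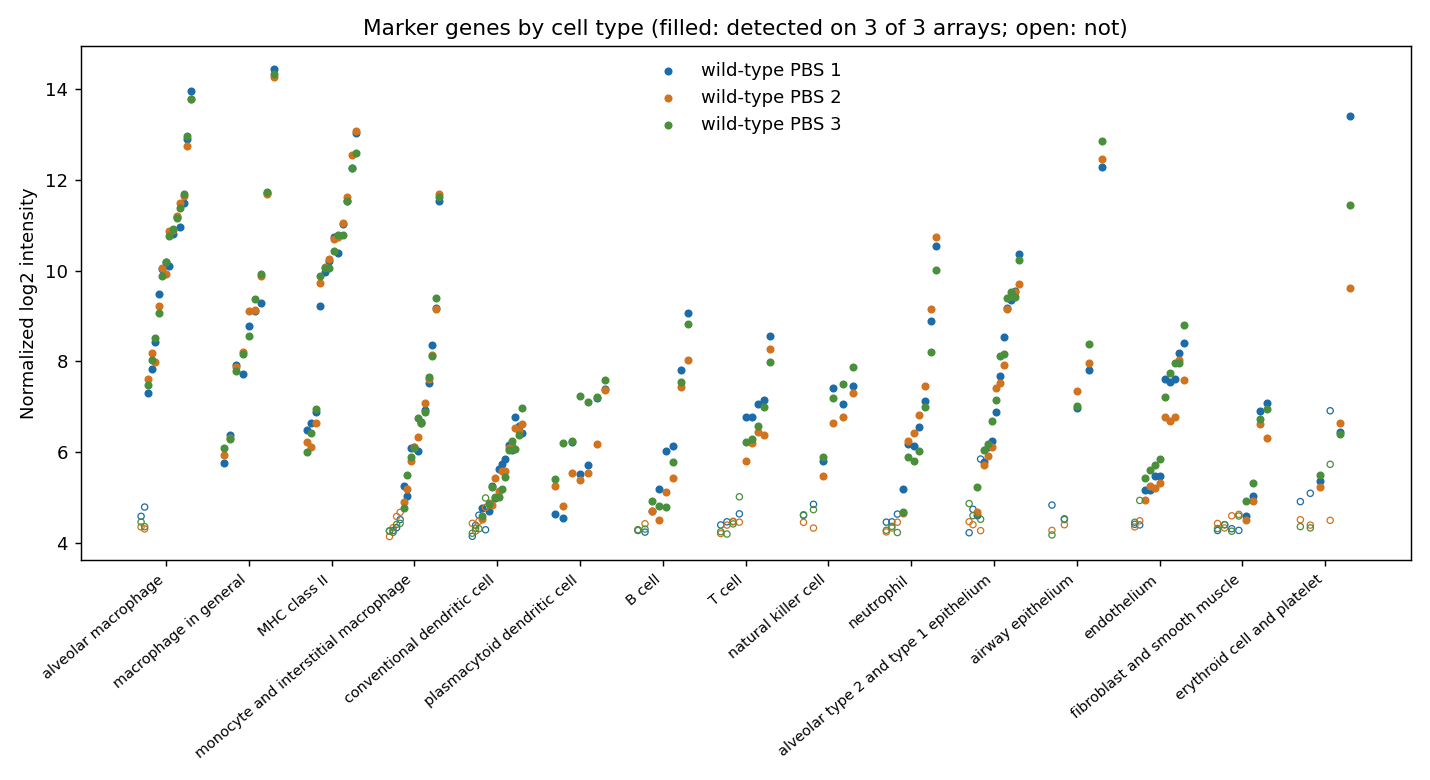
Normalized log2 intensity (vertical) of lineage markers and MHC class II genes, grouped by list along the horizontal axis, with 1 point per gene and wild-type PBS array (filled where the gene was detected on all 3 arrays, open where not). The alveolar macrophage markers Chil3 and Axl lie above 12, while all conventional dendritic cell markers lie below 7.

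Conventional dendritic cell markers were detected but dim. Of 16 listed, 12 were detected and none lay above the upper quartile of detected genes (8.07). The transcription factor Irf8 lay at 6.43, 6.62 and 6.98, Batf3, needed by the cross-presenting subset, at 6.79, 6.53 and 6.08, and the integrin Itgae (CD103) at 6.15, 6.10 and 6.06. Irf8 was brightest on array 3 and Batf3 on array 1. The migration receptor Ccr7 and the actin bundler Fscn1, both known from mature dendritic cells, had means of 5.63 and 5.51. Zbtb46, a factor that defines the lineage, and the chemokine Ccl22 were detected on no array, and Flt3 and Xcr1 had no listed probe. All 7 listed markers of plasmacytoid dendritic cells, which are known for making type I interferon, were detected, 5 of them also at a detection p under 0.01. Each of the 7 was higher on array 3 than on the other arrays. For Ly6d the margin was small, at 7.19, 6.19 and 7.21. The summed deposited intensity of this list, background included, was 1005, 1057 and 1364. Siglech, a defining surface lectin, lay at 5.53, 5.39 and 7.23, Cox6a2 at 5.71, 5.54 and 7.10 and Klk1 at 4.55, 4.81 and 6.20. For these 3 genes, arrays 1 and 2 were close to each other and array 3 stood apart by over 1 log2 unit. The other probe of Siglech, detected on 2 of 3 arrays, had a mean of 4.83. In RNA from a mixture of cells, fewer cells of a type and less RNA per cell cannot be told apart.

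Some transcripts of lymphocytes and granulocytes were detected as well. Of 8 listed B cell genes, 6 were detected (summed deposited intensity 1508, 1336 and 1420), and 4 at a detection p under 0.01. The 6 included the antigen receptor subunit Cd79b at 9.06, 8.04 and 8.82 and the inhibitory receptor Cd22 at 7.82, 7.43 and 7.54. Of 9 T cell genes, 5 were detected, among them Cd8b1 (mean 8.27) and the CD3 subunits Cd3d, Cd3g and Cd3e (means 6.84, 6.42 and 6.27), while Cd4 and Cd28 were detected on none. All 5 were highest on array 1. The cytotoxic genes Prf1, Klrd1 and Nkg7 had means of 7.55, 7.11 and 7.09, and all 4 detected natural killer cell genes were lowest on array 2. The other probe of Prf1 had a mean of 4.49. Of 10 neutrophil genes, 7 were detected, with a summed deposited intensity over the list of 3095, 4339 and 2523. S100a8, a calcium-binding protein abundant in neutrophils and monocytes, lay at 10.54, 10.74 and 10.01, and its partner S100a9 at 8.89, 9.14 and 8.22. Both were lowest on array 3, as were 6 of the 7. The granule genes Ngp and Camp were detected on no array. Of the mast cell, basophil and eosinophil markers, 1 of 6 was detected, the transcription factor Gata2 (mean 4.99), and none at a detection p under 0.01.

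Several genes of epithelial and endothelial cells, which do not carry CD11c, were among the bright or middling transcripts. The summed deposited intensity of the airway list was 5646, 7653 and 8522, nearly all of it from 1 gene. Scgb1a1, the secretoglobin of airway club cells, was the 69th brightest gene, with deposited intensities of 4977, 6789 and 7713. Its log2 levels were 12.28, 12.45 and 12.86, so array 3 was highest and array 1 lowest. The club cell enzyme Cyp2f2 followed the same order at 7.81, 7.96 and 8.39, while the ciliated cell gene Foxj1 was detected on some but not all arrays. Sftpc, a surfactant protein of alveolar type 2 cells, lay at 10.37, 9.71 and 10.24, and Sftpd at 9.18, 9.15 and 9.40. Sftpc was lowest on array 2, and Sftpd differed by 0.25 at most. Of 14 listed alveolar epithelial genes, 11 were detected, including the lipid transporter Abca3 (mean 9.44), the aspartic protease Napsa (9.50) and the type 1 cell receptor Ager (7.77), while the type 2 cell genes Lamp3 and Nkx2-1 were detected on some but not all arrays. The dimmest of the 3 probes of Abca3 had a mean of 4.52. Of 11 endothelial genes, 9 were detected, with a summed deposited intensity of 2125, 2021 and 2427. Ramp2 lay at 8.41, 7.59 and 8.80, Cldn5 at 7.62, 6.78 and 7.96 and Plvap at 7.54, 6.70 and 7.75, each lowest on array 2 and highest on array 3. Of 8 listed fibroblast and smooth muscle genes, 4 were detected, including Acta2 and Dcn at means of 6.78 and 6.76, while the collagen gene Col1a1 was detected on some arrays and Col1a2 on none. The source of this RNA was not tested.

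Genes of MHC class II presentation were detected without exception among those listed, 12 of 12, and 9 of these lay above the upper quartile of detected genes. After Cd74, the class II chain H2-Ab1 lay at 12.27, 12.55 and 12.25, the exchange factor subunit H2-DMa at 11.52, 11.61 and 11.52 and H2-Aa at 10.39, 10.75 and 10.77. H2-Ab1 was highest on array 2, and H2-Aa was lowest on array 1. Ciita, the master regulator of these genes, was dimmer at 6.50, 6.22 and 6.00. All 11 listed MHC class I genes were detected, with B2m, the shared light chain, at 13.24, 13.23 and 13.44. The class I and class II genes include close relatives, so their probes can share light. Of the costimulatory genes, 8 of 11 were detected, with Cd274 (PD-L1) brightest at 9.87, 9.66 and 9.77, while Cd86, Cd40 and Cd80 had means of 7.00, 5.79 and 4.98. Over all antigen presentation lists, 31 of 34 listed genes were detected (91.2%), against 58.8% over all named genes.

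**Figure D3:**
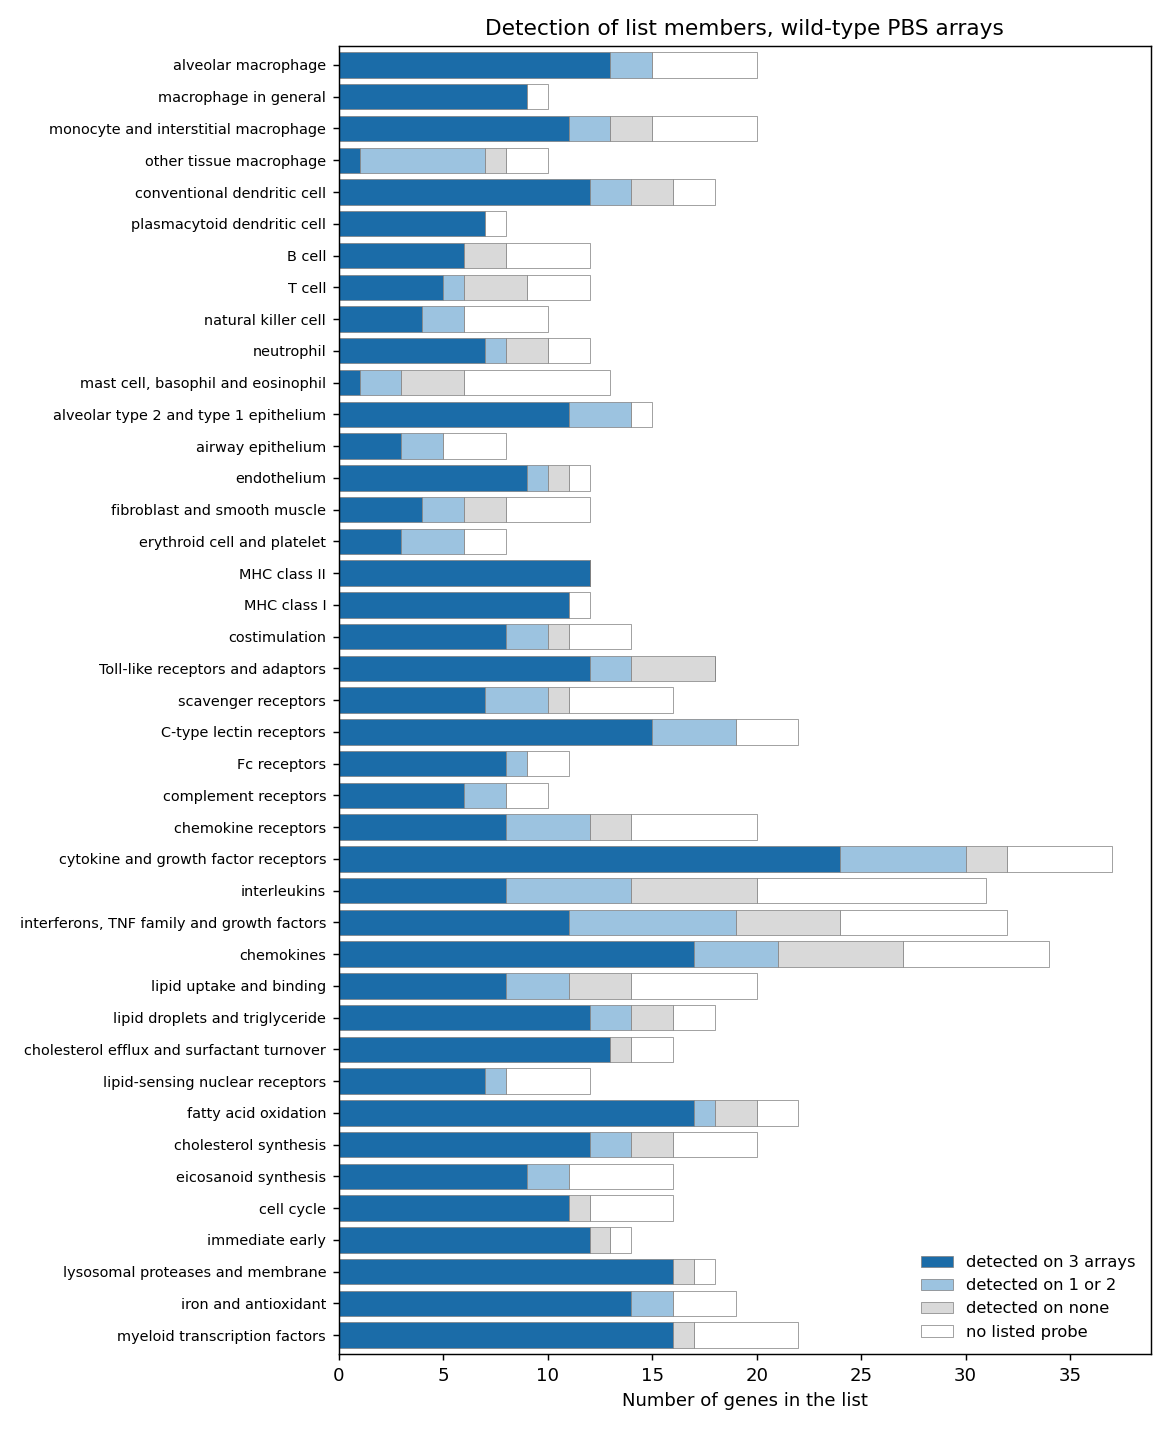
Number of genes per list (horizontal axis, bars start at 0), divided into members detected on all 3 wild-type PBS arrays, on 1 or 2, on none, and members without a listed probe. All listed MHC class II and general macrophage genes were detected, while markers of other tissue macrophages and of mast cells, basophils and eosinophils had 1 detected member each.

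Receptor genes were detected for 79 of 110 listed members (71.8%), against 58.8% over all named genes. Toll-like receptors, which sense microbial molecules, and their adaptors were detected for 12 of 18. Tlr2, a receptor for bacterial lipoproteins, lay at 11.49, 11.53 and 11.17, and the shared adaptor Myd88 at 10.89, 10.96 and 10.71. Both were lowest on array 3. The nucleic acid sensors Tlr7, Tlr13 and Tlr8 had means of 8.60, 7.11 and 6.93, and the endotoxin receptor Tlr4 with its partner Ly96 had means of 7.88 and 7.15. Tlr3, Tlr9, Tlr11 and Tlr12 were detected on no array, and Tlr1 and Ticam1 on some. Of 19 C-type lectin receptors, 15 were detected, led after Mrc1 by Clec4n (Dectin-2) at 11.02, 11.10 and 10.91 and Clec7a (Dectin-1, a receptor for fungal glucans) at 10.88, 11.02 and 11.00. These levels differed by at most 0.19 between arrays.

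Among scavenger receptors, 7 of 11 were detected (63.6%), near the 58.8% over all named genes. The class A receptor Msr1 was near background at 4.39, 4.54 and 4.35. Fc receptors were detected for 8 of 9 and included very bright transcripts. Fcer1g, the common signalling chain, had a mean of 12.96 ± 0.09 (SD, n = 3), and Fcgrt, the neonatal Fc receptor that salvages antibody, lay at 12.09, 12.12 and 12.00. The inhibitory receptor Fcgr2b had a mean of 9.26 ± 0.25 (SD, n = 3) on the brightest of 5 probes, of which the dimmest had a mean of 4.37. Of the complement receptors 6 of 8 were detected, with the integrin chain Itgb2, the partner of CD11c, at 7.02, 7.48 and 7.47. Chemokine receptors were detected for 8 of 14 (57.1%), also near the share over all named genes. They were led by Cxcr4 (mean 7.54) and Cxcr1 (7.35), and no chemokine receptor lay above the upper quartile of detected genes.

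Cytokine and growth factor receptors were detected for 24 of 32. Both receptors of transforming growth factor beta, a factor that alveolar macrophages need, were the brightest of them. Tgfbr1 lay at 11.29, 11.25 and 11.30 with all 3 probes detected, and Tgfbr2 at 11.16, 11.05 and 10.88 on the brightest of 4 probes, of which 2 were detected. For GM-CSF, the alpha chain Csf2ra lay at 9.63, 9.70 and 9.58. The beta chain Csf2rb and its close copy Csf2rb2 were dimmer, with means of 6.31 and 6.70, and can share light. Both interferon gamma receptor chains, Ifngr1 and Ifngr2, were detected (means 7.79 and 7.09), as were Il10ra (7.53), Il6ra (7.90) and Il13ra1 (7.82). Il1r1 and Il1r2 were detected on some but not all arrays, and Il2rb and Il5ra on none.

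Cytokine genes were detected for 36 of 71 listed members (50.7%), against 58.8% over all named genes. Of 20 interleukin genes, 8 were detected, and Il18, an interleukin stored as a precursor in macrophages, was the brightest at 10.80, 10.90 and 10.91. Il1b, of which the protein is released on activation, varied more, at 8.91, 9.43 and 8.31, with array 2 highest and array 3 lowest. Its natural antagonist Il1rn lay at 8.40, 8.43 and 8.34. Il6, Il12a, Il23a, Il4 and Il33 were detected on some but not all arrays, and Il2, Il3, Il11, Il17a, Il25 and Il27 on none. Il13 passed on all 3 arrays at a mean of only 4.64, close to the median undetected gene.

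Of the interferon, TNF family and growth factor genes, 11 of 24 were detected. Mif, a constitutively stored cytokine, lay at 10.98, 11.09 and 10.91, and Tgfb1 at 8.05, 8.20 and 8.13. Osm, of the interleukin 6 family, lay at 7.94, 8.97 and 8.00 and was about 1 log2 unit higher on array 2. Tnf had a mean of 6.06, Igf1 6.44 and Vegfa 4.79, while Ifng and Ifna2 were detected on some arrays and Csf1 and Csf3 on none. Chemokine genes were detected for 17 of 27. Ccl6, a chemokine of resident mouse macrophages, lay at 11.09, 11.45 and 11.46 and its relative Ccl9 at 9.16, 9.58 and 9.60. Both were lowest on array 1. Ccl5 had a mean of 8.92, Ccl17, known from dendritic cells, 7.25 and Cxcl15, the lung epithelial chemokine, 7.99. The neutrophil chemokine Cxcl2 lay at 5.16, 6.52 and 5.89, highest on array 2. The inflammatory chemokines Ccl2, Ccl8, Ccl12 and Cxcl10 were detected on no array.

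Lipid genes were detected for 78 of 99 listed members (78.8%), against 58.8% over all named genes. Lpl, the enzyme that frees fatty acids from triglyceride-rich particles, was the 28th brightest gene at 13.18, 13.44 and 13.19 on its brighter probe. Its other probe had a mean of 4.35, so the high level rests on 1 probe. Psap, the precursor of the saposins that help break down sphingolipids, lay at 13.11, 13.29 and 13.29 with both probes detected. Pla2g15, the lysosomal phospholipase that degrades surfactant phospholipids, lay at 12.01, 12.06 and 12.08. These 3 genes differed by at most 0.26 between arrays.

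In the list of cholesterol efflux and surfactant turnover, 13 of 14 genes were detected. The endosomal cholesterol transporter Npc1 had a mean of 11.05 ± 0.11 (SD, n = 3), the acid lipase Lipa 10.45 ± 0.07, the efflux pump Abcg1 9.25 ± 0.04 and Apoe 8.21 ± 0.13. The dimmest of the 4 probes of Npc1 had a mean of 4.26. Ch25h, which makes 25-hydroxycholesterol, stood apart at 7.51, 7.66 and 9.39, with array 3 higher than both others by over 1.5 log2 units. Droplet and triglyceride genes were detected for 12 of 16. Plin2, the coat protein of lipid droplets, lay at 10.28, 9.92 and 10.30, and the lipase Pnpla2 at 9.63, 9.70 and 9.90, while Lipe and Plin5 were detected on no array. In the uptake list 8 of 14 were detected, with the acyl-CoA synthetase Acsl5 at 10.52, 10.68 and 10.60. Fabp5 had a mean of 5.95, Fabp3 was detected on some arrays and Fabp7 on none.

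Fatty acid oxidation genes were detected for 17 of 20, and the mean level of the 17 was 8.27, 8.26 and 8.28 on the 3 arrays. The thiolase genes Acaa1a and Acaa1b, which are close copies, had means of 11.41 and 11.13, the electron transfer flavoprotein subunits Etfb and Etfa 10.79 and 10.57, and Cpt2, which completes the entry of fatty acids into mitochondria, 8.86. Hadha was detected on some arrays and Hadh on none. Of 16 cholesterol synthesis genes, 12 were detected. Fdps lay at 8.88, 9.27 and 9.19 and Sqle at 7.35, 7.92 and 7.93, both lowest on array 1. The other probe of Fdps had a mean of 4.40. Of the lipid-sensing nuclear receptors 7 of 8 were detected, and after Pparg the oxysterol receptor gene Nr1h3 (LXRα) lay at 8.09, 8.21 and 8.06.

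Eicosanoid genes were detected for 9 of 11, and those of the leukotriene branch were the brightest. Alox5ap, which presents arachidonic acid to 5-lipoxygenase, was the 60th brightest gene at 12.49, 12.73 and 12.69. Ltc4s, the leukotriene C4 synthase, lay at 10.23, 10.21 and 10.12, and Alox5, the 5-lipoxygenase itself, at 9.74, 9.62 and 9.76. Arrays differed by at most 0.24 in each. Tbxas1, the thromboxane synthase, had a mean of 8.75 ± 0.27 (SD, n = 3), while Alox15 and Ptges were detected on some but not all arrays.

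In the list of lysosomal proteases and membrane proteins, 16 of 17 genes were detected and 15 lay above the upper quartile of detected genes. The protease Ctsb lay at 12.17, 12.57 and 12.66. Cd9, a membrane protein that is not particular to lysosomes, lay at 12.95, 13.13 and 12.92. Ctsl was detected on no array. Gpx1, a peroxide-removing enzyme, lay at 13.03, 13.25 and 13.23, and Prdx1 at 12.74, 12.97 and 13.07. The other probe of Prdx1 had a mean of 4.41. Hmox1, the haem-degrading enzyme, was dim at 6.60, 6.20 and 6.52. Of 17 transcription factors of myeloid cells 16 were detected, led by Cebpb at 12.11, 12.57 and 12.36, while the lineage factor Spi1 (PU.1) had a mean of 6.88. Cell cycle genes were detected for 11 of 12, with the replication helicase subunit Mcm5 at 8.30, 8.50 and 8.35, the kinase Cdk1 at 6.98, 6.47 and 6.35 and Top2a at a mean of 6.27.

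The 3 arrays were close for most genes. The median SD over the 7700 detected genes was 0.13 log2 and the 90th percentile 0.27, and pairwise correlations across detected probes, which are not independent replicates, were 0.988, 0.989 and 0.992 (Pearson). Between pairs of arrays, 96.8% to 98.1% of detected genes lay within 1.5-fold. Only 41 genes (0.532%) differed by more than 2-fold between the highest and the lowest array under this processing, and 711 did so in the authors' processed table. Array 1 was the farthest from the other arrays for 15 of the 41, array 2 for 14 and array 3 for 12.

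The largest differences were in globins. Hbb-bs, a beta globin of adult red cells, had deposited intensities of 12363, 1260 and 4201, Hbb-bt log2 levels of 13.44, 9.75 and 11.73, and the alpha globin Hba-a1 deposited intensities of 10672, 1101 and 3020. Array 1 was highest and array 2 lowest for all 3, over a range of 14.0-fold for Hbb-bs, 12.9-fold for Hbb-bt and 13.8-fold for Hba-a1 on the normalized scale. Alas2, the haem synthesis enzyme of red cell precursors, followed the same order with deposited intensities of 187, 97.7 and 127, and was detected on some but not all arrays. The summed deposited intensity of the erythroid and platelet list, in which Hba-a1 is the globin member, was 11319, 1709 and 3609. The beta globins are near-identical copies that can share light. The promoters of the 3 globins are shown because these genes had the largest ranges. Each promoter holds the letters ATATAA, in capitals, about 30 bases before the start. The sequences are from RefSeq on GRCm38.p6, from 60 bases before to 30 bases after the start, at chr11:32283612-32283701 on the plus strand for Hba-a1, and on the minus strand at chr7:103827899-103827988 for Hbb-bs and chr7:103813894-103813983 for Hbb-bt.
Hba-a1: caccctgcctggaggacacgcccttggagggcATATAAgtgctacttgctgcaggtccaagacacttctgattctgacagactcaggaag
Hbb-bs: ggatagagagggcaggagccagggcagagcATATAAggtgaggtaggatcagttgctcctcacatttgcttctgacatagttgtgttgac
Hbb-bt: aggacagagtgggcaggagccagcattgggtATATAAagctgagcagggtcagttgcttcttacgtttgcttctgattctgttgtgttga
The letters ATATAA, searched on the transcribed strand from 50 to 15 bases before the start, were found in all 3 globins, in 469 of 27025 genes with a promoter (1.74%) and in 44 of 6315 detected genes (0.697%). This motif was chosen after the globin values were seen, so its presence in all 3 was fixed by that choice. Whether it bears on the differences between arrays was not tested.

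**Figure D4:**
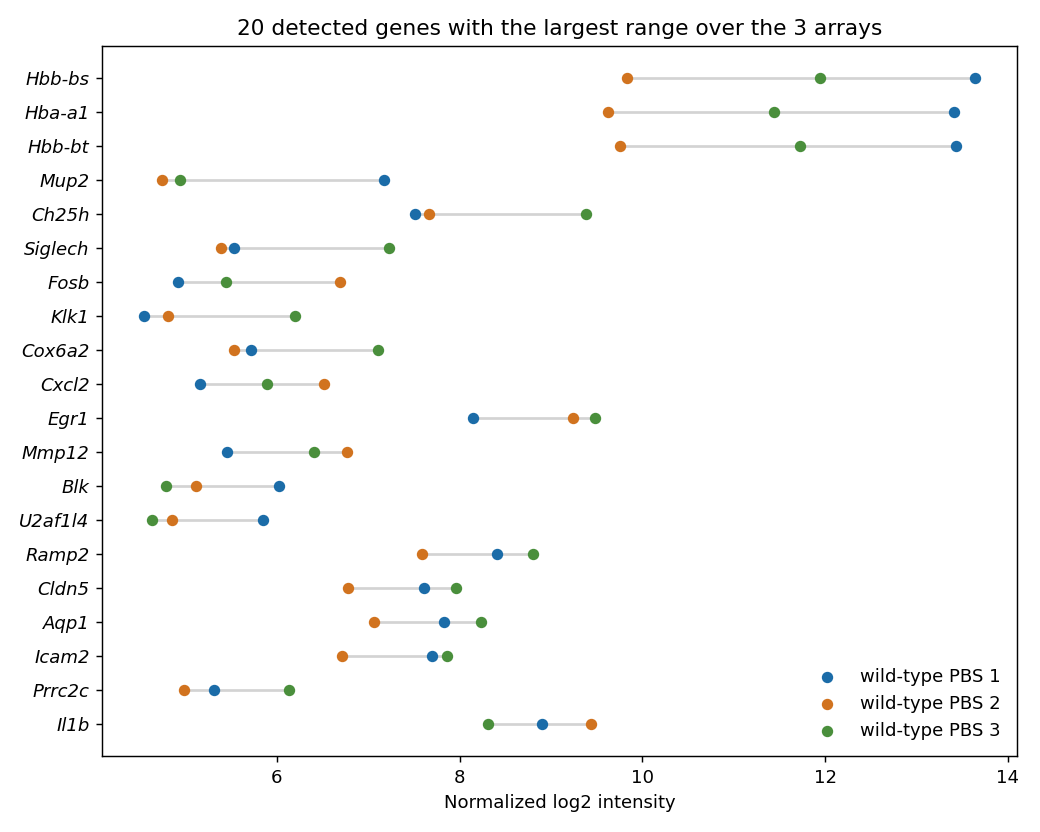
Log2 intensity (horizontal) on each wild-type PBS array for the 20 detected genes with the largest range between arrays, 1 point per array. The 3 globins span over 3.5 log2 units, with array 1 highest and array 2 lowest.

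Immediate early genes, which are switched on within minutes by many stimuli, were lowest on array 1 for 10 of 12 detected members and highest on array 2 for 7. Array 1 was lowest for 37.1% of all detected genes and array 2 highest for 32.5%. The genes of cholesterol efflux and surfactant turnover were lowest on array 1 for 10 of 13 and those of lipid uptake for 7 of 8. Myeloid transcription factors were lowest there for 11 of 16 and cholesterol synthesis genes for 7 of 12. Other lipid lists did not share this lean. Of the 12 droplet and triglyceride genes, 2 were lowest on array 1 and 7 were highest there. Array 1 was lowest for 7 of 17 fatty acid oxidation genes, 4 of 9 eicosanoid genes and 2 of 7 lipid-sensing nuclear receptors. Differences were small in the efflux and turnover list, with means of 9.03, 9.14 and 9.25 and a median SD of 0.093. These means include Ch25h, at 7.51, 7.66 and 9.39, which raises the mean of array 3. Fos lay at 10.14, 11.17 and 10.50, Dusp1 at 10.47, 11.46 and 10.79 and Fosb at 4.92, 6.69 and 5.44. Egr1 differed in its order, at 8.15, 9.24 and 9.49. The mean of the 12 immediate early genes was 7.47, 8.08 and 7.82. Il1b, Cxcl2 and Osm were also highest on array 2, but not all members of their lists were. Array 2 was highest for 4 of 8 detected interleukins and 5 of 11 interferon, TNF family and growth factor genes. Among the 17 detected chemokines it was highest for 4, and array 3 for 9. Endothelial genes were lowest on array 2 for 7 of 9 and highest on array 3 for 7 of 9, against 29.6% and 32.0% of all detected genes. The low on array 2 was not particular to them. It held for 4 of 4 fibroblast and smooth muscle, 4 of 4 natural killer and 4 of 5 T cell genes. It also held for 5 of 7 plasmacytoid dendritic, 4 of 6 B cell and 7 of 11 alveolar epithelial genes. The counts were 1 of 7 for neutrophil, 0 of 3 for airway and 2 of 12 for conventional dendritic cell genes. Aqp1 and Icam2, both also known from endothelium, are not in the endothelial list and were named for their large range between these arrays. They lay at 7.83, 7.07 and 8.24 and at 7.70, 6.72 and 7.86. Because of that choice, their order is no separate support for the endothelial order. The B cell kinase Blk lay at 6.02, 5.12 and 4.79, and 5 of 6 detected B cell genes were highest on array 1, against 35.5% of all detected genes. Mmp12, the macrophage elastase, lay at 5.45, 6.77 and 6.41, lowest on array 1, and Mup2, a major urinary protein gene of a family of near-identical copies, lay at 7.17, 4.74 and 4.94, highest on array 1. Genes more than 2-fold apart thus included examples highest on each of the 3 arrays. What these differences between the 3 samples come from was not tested.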

How the data were processed

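Per the labels, RNA of CD11c+ lung cells was measured on 12 Illumina bead arrays, and the 3 titled wild-type PBS are described. The deposited table holds the scanned intensity of each of 45281 probes per array, exported by GenomeStudio per the submitters' processing notes (no version given), and a detection p-value per probe per the file headers. The authors' second deposited table is on a log2 scale and holds the 24952 probes detected on at least 1 of 12 arrays, as tested on the values. Whether a background had been subtracted from the intensities is not given in the sources used here. The median over all probes, most of them not detected, was 85.5, 93.2 and 91.0 on wild-type PBS arrays 1, 2 and 3. The deposited intensities thus still held a background.

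Background correction and quantile normalization were done over all 12 arrays with neqc of limma 3.58.1 (R 4.3.3, offset 16, background from the detection p-values). Of 45281 probes, 20501 had 1 symbol in the platform annotation (20470 matched to RefSeq GRCm38.p6 by Entrez ID), 11 had several and 24769 were not named. A gene was its brightest probe over the 3 arrays, and detected where any probe had a detection p under 0.05 on all 3. Genes were ordered by mean rank of deposited intensity. No test was made, since no groups were compared. The detection and ranking steps were tried on simulated probes, while the background correction, normalization and choice of probe were not. The number of arrays limits the precision.

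Genes named are the first 40 in brightness, the 20 detected genes with the largest range between arrays, and members of 41 lists (634 genes, of which 507 had a listed probe). Any other is said to be chosen after its values were seen. The members and lists were chosen with earlier results of these data known. Alternatives were a stricter detection threshold, fewer arrays, other probe rules, other normalizations, another offset and the authors' table.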

Additional observations from a re-analysis of the deposited data

How the results depend on the processing

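The share of brightness held by the first 100 genes (21.5%) was 29.5% with background-corrected values and 29.8% in the authors' table. The median level of detected list members (7.17 log2) was 7.32 with the 3 arrays normalized alone, 7.30 with median scaling, 6.97 in the authors' table and 7.48 with an offset of 50. The median SD (0.129) was 0.132, 0.206, 0.174 and 0.0914 in the same order, and 0.0917 to 0.112 without 1 array. Genes more than 2-fold apart numbered 41, against 64 with median scaling, 711 in the authors' table, 12 with an offset of 50 and 15 to 20 without 1 array. Detected genes numbered 7053 at a detection p under 0.01 and 7879 to 8120 without 1 array, against 7700. Without 1 array, a range spans fewer values and detection is required on fewer arrays. The values without 1 array are therefore not like for like with those over 3. With the median over probes in place of the brightest probe, 29 of the first 40 genes were shared, against 40 with background-corrected values or the authors' table. Without array 1, 2 or 3 the level of Hba-a1 ran from 10.53 to 12.39. No paired analysis was possible because only 1 group is described and no groups are compared. With 3 arrays, dim genes near the background are the least certain, and 30 list members had a probe detected on all 3 arrays and another on none. Ftl1, Itgae, Acta2, Ciita, Top2a and Cd40 were among these members.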
